A study of Mus musculus with 2 samples.

Results

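The mitotic kinesins examined here are 10 genes, *Kif2c*, *Kif4*, *Kif11*, *Kif14*, *Kif15*, *Kif18a*, *Kif20a*, *Kif20b*, *Kif22* and *Kif23*, found by their symbols among the 49492 genes of the count table. They were chosen as motors of spindle assembly, chromosome movement and cytokinesis. RNA was sequenced from basal cells, sorted by flow cytometry as lineage-negative CD24+ CD29hi cells, from the mammary glands of adult wild-type female mice. The CL basal library came from mice given clodronate liposomes (CL), lipid vesicles that kill the macrophages that take them up. The Ctrl basal library came from control mice, whose treatment is labelled none and which the design text describes as given saline. Both libraries are labelled day 7, and how many mice were pooled into each is not given in the sources used here. The libraries held 38962512 counts (CL basal) and 37846008 counts (Ctrl basal). There was 1 library per group, so none of the differences could be checked against replicates, and all intervals cover counting error only.

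Kinesins are ATP-driven motor proteins that walk along microtubules or take them apart at their ends. Those of mitosis build the bipolar spindle, move and align chromosomes, and organise the midzone at which the daughter cells separate. Their transcripts are known to accumulate late in the cell cycle, so in a mixed sample they come mainly from the cells that are about to divide. In a bulk library, fewer such cells and less RNA per cell cannot be told apart.

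All 10 mitotic kinesins had lower scaled counts in CL basal than in Ctrl basal, by amounts within the counting error for *Kif14*, *Kif18a* and *Kif23*, and 5 of them (*Kif2c*, *Kif4*, *Kif15*, *Kif20b* and *Kif22*) were at least 2-fold lower. None was at least 2-fold higher. Of all 17356 genes tested, those with a total of 20 counts or more, 4.79% were at least 2-fold lower and 2.07% at least 2-fold higher. Genes of low abundance vary more, so the same shares were taken over the 6141 genes whose total lay between 56 and 570 counts, the range of the kinesins. There, 5.8% were at least 2-fold lower and 1.82% at least 2-fold higher. The median log2 ratio (log2 fold change of CL basal over Ctrl basal) was -1.02 for the kinesins, -0.10 for genes of that abundance and -0.01 for all tested genes. A log2 ratio below 0, of any size, was found in 3642 of the 6141 genes of that abundance and in 8986 of all 17356.

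The promoters are shown because genes of the late cell cycle are known to share elements there. Genes expressed late in the cell cycle often carry a CHR element (cell cycle genes homology region, core TTTGAA), to which the DREAM complex binds, and CCAAT boxes, to which NF-Y binds. RefSeq promoter windows (GRCm38.p6, 250 bases before to 50 bases after the start) were found for 9 of the 10 genes. The table of windows used here held no entry for *Kif20a*. TTTGAA or its reverse complement TTCAAA was present in 8 of these 9 windows, against 17.9% of all 32851 promoter windows. In 6 of the 9 the match lay within 50 bases of the start, against 4.94% of all windows, a distance chosen after the positions had been seen. CCAAT or its reverse complement ATTGG was present in 5 of the 9 windows, against 37.4% of all windows. These matches describe the letters only and do not show that a factor binds. Capitals below mark both motifs, and bases run 5′ to 3′ on the strand of the gene.
*Kif11*, bases -70 to -1 from the start, chr19:37376312-37376381, plus strand, which holds both motifs: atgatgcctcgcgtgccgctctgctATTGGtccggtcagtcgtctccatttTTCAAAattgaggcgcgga
*Kif22*, the site closest to the start, chr7:127042420-127042449, minus strand: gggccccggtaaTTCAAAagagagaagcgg
*Kif15*, the site closest to the start, chr9:122951050-122951079, plus strand: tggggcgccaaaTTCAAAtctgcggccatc
*Kif4*, chrX:100626072-100626101, plus strand: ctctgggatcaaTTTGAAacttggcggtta
*Kif20b*, with a pair of adjoining matches, chr19:34922353-34922382, plus strand: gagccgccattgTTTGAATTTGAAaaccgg
*Kif23*, chr9:61946780-61946809, minus strand, in which both motifs lie close together: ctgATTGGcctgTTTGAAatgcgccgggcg
*Kif18a*, bases -70 to -1, chr2:109280668-109280737, plus strand, shown as the window with neither motif: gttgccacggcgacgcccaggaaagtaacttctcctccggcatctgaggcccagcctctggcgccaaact

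The CHR match nearest the start began at base -19 in *Kif11* and *Kif15*, at -17 in *Kif22*, at 3 in *Kif23*, at 8 in *Kif20b* and at 20 in *Kif4*. In *Kif2c* and *Kif14* the only CHR match began farther away, at -103 and at -228. For these last genes the RefSeq start lay 3867 and 1505 bases from the 5′ end of the gene in the count table, so their windows may belong to another start. In *Kif4* this distance was 328 bases, so the same may hold for its match near the start.

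The first pair of motors builds the spindle. *Kif11* (chromosome 19, 37376403 to 37421859, GRCm38) encodes the motor that crosslinks and slides antiparallel microtubules to push the spindle poles apart. It had 118 counts in CL basal against 204 in Ctrl basal. The log2 ratio of -0.78 (95% interval -1.28 to -0.32) was short of 2-fold. *Kif15* (chromosome 9, 122951046 to 123018733) encodes a motor that holds the spindle bipolar and can replace the *Kif11* product in part. It had 63 counts in CL basal against 200 in Ctrl basal, a log2 ratio of -1.64 (-2.30 to -1.08). Of these motors, *Kif15* was thus the one with the larger difference, although the intervals of both overlap. Their summed counts were 181 in CL basal against 404 in Ctrl basal.

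The next pair acts on microtubule ends and chromosome alignment. *Kif2c* (chromosome 4, 117159639 to 117182639) encodes a kinesin that does not walk but depolymerises microtubules at centromeres, which helps to correct faulty attachments. It had the fewest counts of the kinesins in CL basal, 12, against 44 in Ctrl basal. This is a log2 ratio of -1.72, with the widest interval of the 10 genes (-3.47 to -0.53). *Kif18a* (chromosome 2, 109280738 to 109341747), whose product dampens chromosome movements at the metaphase plate, had 27 counts in CL basal against 29 in Ctrl basal. Its log2 ratio was -0.10 (-1.29 to 1.07), so no difference was detectable at this depth and a 2-fold change in either direction lies within the interval.

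The chromokinesins *Kif4* and *Kif22* encode motors that bind chromosome arms. *Kif22* (chromosome 7, 127027729 to 127042471), whose product pushes the arms towards the spindle equator, had 35 counts in CL basal against 128 in Ctrl basal. Its log2 ratio of -1.82 (-2.73 to -1.09) was the lowest of the 10 genes, and 0.899% of all tested genes had a lower one. *Kif4* (chromosome X, 100625737 to 100727214), whose product also works with condensin and at the spindle midzone, had 99 counts in CL basal against 213 in Ctrl basal. The log2 ratio was -1.09 (-1.63 to -0.61). *Kif4* lay just past the 2-fold threshold and *Kif14*, at -0.95, just short of it. Log2 ratios include a prior count of 2, which draws low counts towards 0, and without it *Kif14* was 2.005-fold lower.

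Both chromokinesins share exonic bases with a gene on the other strand, and the use of strand in the counting is not given in the sources used here. *Kif4* shares 832 of its 5514 exonic bases with *Pdzd11*, which had 61 counts in CL basal against 86 in Ctrl basal. *Kif22* shares 96 of 4903 with *Gm31749*, which had 16 and 3 counts. The pseudogenes *Kif4-ps* and *Kif22-ps* had 0 counts in both libraries, which allows up to 0.156 CPM in each (CPM, counts scaled to a common library total).

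The motors of cytokinesis were uneven among themselves. *Kif23* (chromosome 9, 61915905 to 61946774) encodes a subunit of centralspindlin, the complex that bundles midzone microtubules. With 274 counts in CL basal against 296 in Ctrl basal it had the most counts of the kinesins and a log2 ratio of -0.11 (-0.46 to 0.23). This interval excludes a 2-fold change in either direction between these libraries. *Kif20b* (chromosome 19, 34922358 to 34975731), a midzone motor needed for the last step of cell separation, had 77 counts in CL basal against 186 in Ctrl basal. Its log2 ratio was -1.25 (-1.86 to -0.72). The intervals of *Kif23* and *Kif20b* do not overlap, so within this group the libraries differed by unequal amounts.

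*Kif20a* (chromosome 18, 34624624 to 34633265) encodes the motor that carries the chromosomal passenger complex to the midzone. It had 122 counts in CL basal against 178 in Ctrl basal, a log2 ratio of -0.54 (-1.04 to -0.06). Of its 3796 exonic bases, 1259 (33.2%) overlap *Cdc23* on the other strand, which had 1035 and 1045 counts, so reads of *Cdc23* may be among those of *Kif20a*. *Kif14* (chromosome 1, 136466343 to 136531511), whose product recruits citron kinase to the midbody, had 26 counts in CL basal against 52 in Ctrl basal. The log2 ratio was -0.95, with an interval that just includes no change (-2.09 to 0.01).

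**Figure D1:**
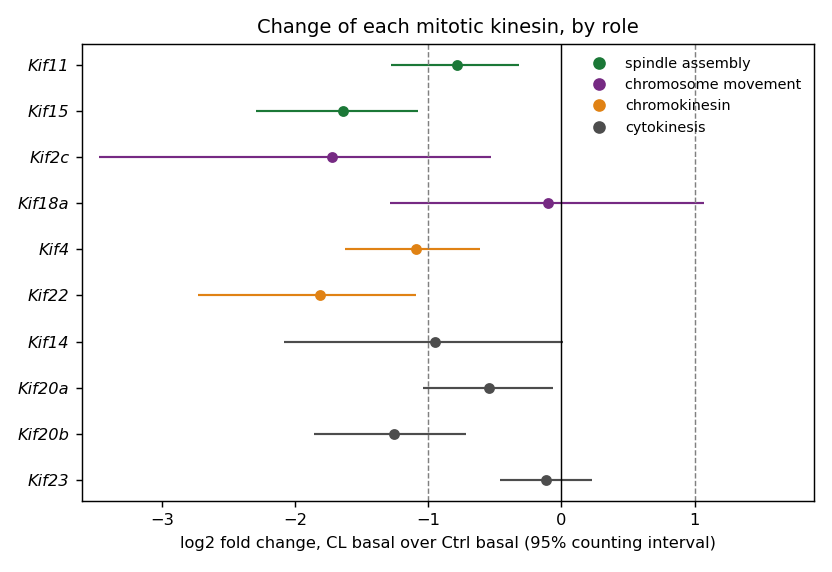
Log2 ratio of CL basal over Ctrl basal (horizontal axis) for each of the 10 mitotic kinesins, coloured by role, with 95% counting intervals (1 library per group) and dashed lines at a 2-fold change. All points lie below 0, from -1.82 (*Kif22*) to -0.10 (*Kif18a*), and the intervals of *Kif18a*, *Kif14* and *Kif23* include 0.

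In 7 of the 10 kinesins the whole 95% interval lay below 0 and in 3 it included 0. Over all tested genes the interval lay below 0 in 17.4% and above 0 in 18.5%. Over genes of the abundance of the kinesins these shares were 15.5% and 6.99%. Together the 10 genes held 853 counts in CL basal against 1530 in Ctrl basal, a log2 ratio of -0.85 (-1.02 to -0.67). *Kif23* alone made up 32.1% of the summed counts in CL basal, against 19.3% in Ctrl basal. Without it the sums were 579 and 1234, a log2 ratio of -1.10 (-1.30 to -0.89).

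**Figure D2:**
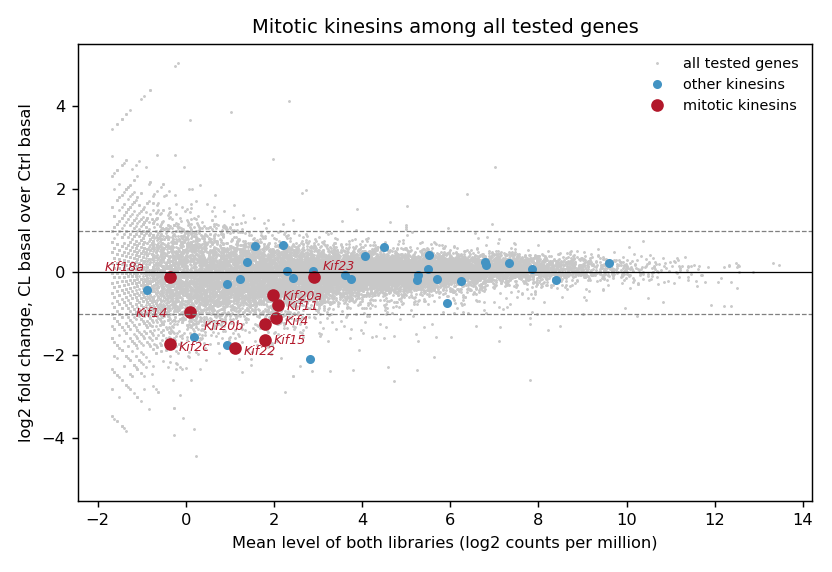
Log2 ratio (vertical axis) against the mean level of both libraries in log2 CPM (horizontal axis) for all 17356 tested genes (grey), the 10 mitotic kinesins (red, named) and 29 other kinesins (blue). The mitotic kinesins sit at low abundance, and 5 of them lie below the dashed line of a 2-fold decrease, as do 3 of the other kinesins.

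The level of each kinesin was then compared per length, as scaled CPM per kilobase of exon. In Ctrl basal the order was *Kif20a* (1.22), *Kif11* (1.10), *Kif4* (1.01), *Kif23* (0.977), *Kif20b* (0.872), *Kif22* (0.681), *Kif15* (0.473), *Kif2c* (0.263), *Kif14* (0.131) and *Kif18a* (0.0769). The highest level was 15.9 times the lowest. All 10 lay below 2.52, the median level of all tested genes in this library. In the order of levels, no neighbours differed beyond their 95% counting intervals.

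In CL basal *Kif23* came first, at a level of 0.902 (0.757 to 1.07). It was followed by *Kif20a* (0.836), *Kif11* (0.637), *Kif4* (0.467), *Kif20b* (0.360), *Kif22* (0.186) and *Kif15* (0.149). *Kif2c* (0.0715), *Kif18a* (0.0714) and *Kif14* (0.0653) came last, with overlapping intervals. Neighbours again did not differ beyond their intervals. *Kif23* moved from the fourth place to the first, with levels of nearly the same size in both libraries, while *Kif20a*, *Kif11* and *Kif4*, which stood above it in Ctrl basal, stood below it in CL basal. The lengths sum the exons of all annotated transcripts, so genes with long alternative ends, such as *Kif18a* with 9832 exonic bases, may be ranked too low.

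**Figure D3:**
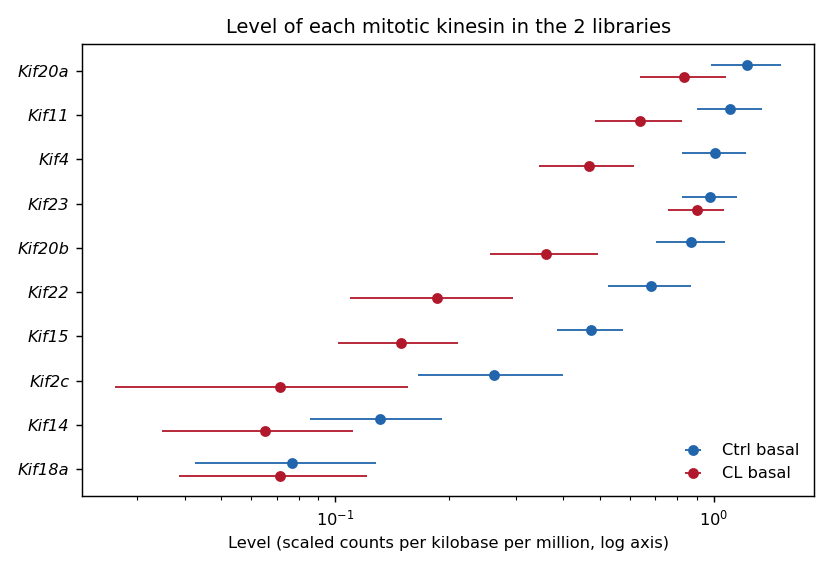
Level of each mitotic kinesin in Ctrl basal (blue) and CL basal (red), in scaled CPM per kilobase on a log axis, with 95% counting intervals (1 library each). In Ctrl basal levels run from 0.0769 (*Kif18a*) to 1.22 (*Kif20a*), and the CL basal point lies left of the Ctrl basal point for all 10 genes, by least for *Kif18a* and *Kif23*.

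The rest of the kinesin family gives a comparison with motors that mostly carry cargo outside mitosis. Of 32 other kinesin genes in the table, 29 were tested, and 3 were at least 2-fold lower and 0 at least 2-fold higher. Their median log2 ratio was -0.06. *Kif5b*, the heavy chain of conventional kinesin and the most abundant of them, had 31928 counts in CL basal against 27380 in Ctrl basal (log2 ratio 0.22, 0.18 to 0.25). *Kif1c*, a vesicle motor, had 12211 and 13824 counts (-0.18, -0.23 to -0.13), and *Kif26a* had the largest positive difference (216 and 135 counts, 0.67).

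The 3 other kinesins at least 2-fold lower were *Cenpe*, *Kifc1* and *Kif18b*. *Cenpe*, the kinetochore motor, had a log2 ratio of -2.10 (-2.59 to -1.67), and *Kifc1*, a minus end directed motor that gathers spindle poles, had 32 counts in CL basal against 112 in Ctrl basal (-1.75, -2.71 to -0.99). *Kif18b*, a motor at the tips of astral microtubules named after its value was seen, had 20 and 63 counts (-1.57, -2.85 to -0.60). *Kif2a*, which encodes a microtubule depolymerase of the same family as *Kif2c* and was also named after its value was seen, had 1787 and 1686 counts (0.08, -0.06 to 0.22). The counts of *Kifc1* may be split with its close relative *Kifc5b*, which had 64 and 78 counts.

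Genes whose products work with the kinesins were taken by role. Of 11 cytokinesis partners, 6 were at least 2-fold lower and 0 higher, with a median log2 ratio of -1.004. Among them were *Cep55*, an organiser of the midbody (44 counts in CL basal against 130 in Ctrl basal, log2 ratio -1.53), the contractile ring protein *Anln* (137 and 325 counts, -1.24) and the chromosomal passenger subunit *Cdca8* (75 and 198 counts, -1.38). The partner of the *Kif23* product in centralspindlin, *Racgap1*, had 82 and 153 counts, a log2 ratio of -0.89 (-1.49 to -0.34). The most abundant partners, *Incenp* (945 and 1424 counts) and *Prc1* (392 and 548 counts), had log2 ratios of -0.59 and -0.49. *Plk1* was the only one of the 11 with a positive value, 0.55 (-0.36 to 1.56). *Anln*, *Cdca8*, *Racgap1* and *Plk1* were named after their values were seen.

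Of 12 spindle assembly partners, 2 were at least 2-fold lower, *Tpx2* (168 counts in CL basal against 473 in Ctrl basal, log2 ratio -1.49, named after its value was seen), which activates Aurora A on the spindle, and *Kifc1*, which is also in this list. The list's median was -0.05, 6 of the 12 were higher in CL basal, and the 95% interval lay below 0 in 3 and above 0 in 2. These 2 were *Ckap5*, a microtubule polymerase (2533 and 1989 counts, 0.34, 0.22 to 0.47), and *Kansl1* (3380 and 2937 counts, 0.20, 0.10 to 0.30), and *Numa1*, a spindle pole protein, was level at 22496 and 22214 counts (0.01). Of 9 genes of condensin subunits and *Top2a*, 2 were at least 2-fold lower, *Ncapg* (18 and 53 counts, -1.46, named after its value was seen) and *Top2a* (390 and 891 counts, -1.19), and the median was -0.17. *Smc4*, the most abundant of these 9, had a log2 ratio of -0.08. *Smc2*, named after its value was seen, had 380 and 582 counts (-0.62, -0.89 to -0.35). The 95% interval lay below 0 in 4 of the 9 and above 0 in 0.

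Of 18 regulators of late cell cycle transcription, 1 was at least 2-fold lower, *E2f8*, a repressor of the E2F family (144 and 317 counts, log2 ratio -1.13). *Foxm1*, an activator of mitotic genes named after its value was seen, had 146 and 140 counts (0.06, -0.44 to 0.55). *Mybl2*, also named after its value was seen, had 86 and 129 counts (-0.58, -1.18 to -0.01). The 95% interval lay below 0 in 3 of the 18 regulators and above 0 in 4. The median of this list was 0.07. None of 16 S phase genes and none of 20 tested tubulin and gamma-tubulin complex genes was past 2-fold in either direction, with medians of 0.03 in both. *Pcna*, the sliding clamp of DNA replication, had 5963 and 4762 counts (0.32), whereas *Tyms*, the thymidylate synthase, had 144 and 224 (-0.63, -1.09 to -0.20). The 95% interval lay below 0 in 3 of the 16 S phase genes and above 0 in 3. *Tuba1c*, an alpha-tubulin, had 10742 and 9375 counts (0.19), and *Tuba8* had 148 and 241 (-0.70, -1.145 to -0.28). The interval lay below 0 in 3 of the 20 tubulin and gamma-tubulin complex genes and above 0 in 8.

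**Figure D4:**
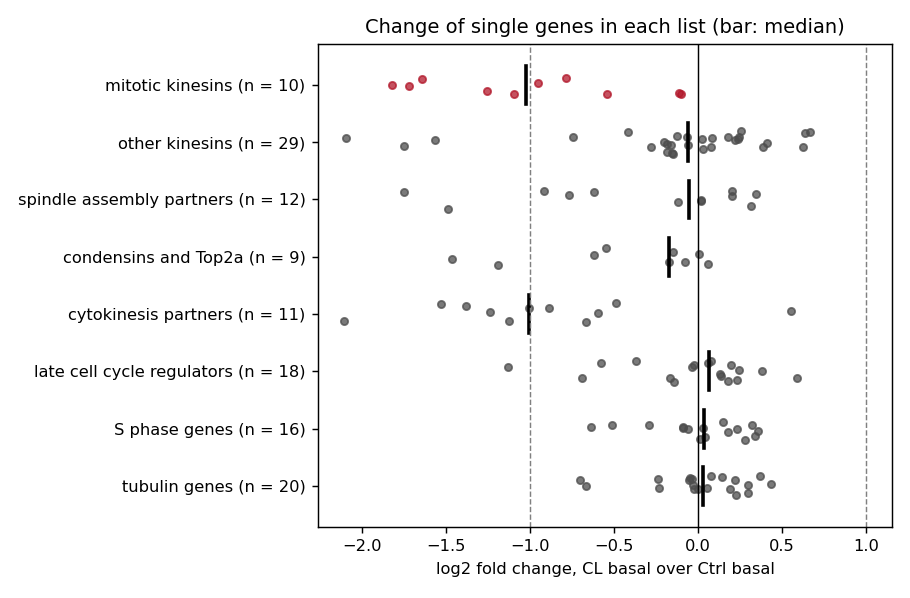
Log2 ratio of CL basal over Ctrl basal (horizontal axis) for each tested gene (points, spread vertically for legibility) of the mitotic kinesins, the other kinesins and 6 lists of partners, regulators, S phase and tubulin genes, with the median of each list as a bar and dashed lines at a 2-fold change. The medians of the mitotic kinesins (-1.02) and the cytokinesis partners (-1.004) stand near the 2-fold line, and the other medians lie between -0.17 and 0.07.

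Markers of some other cell types differed between the libraries as well, whereas none of the 5 tested lymphoid markers differed beyond counting error. All 8 basal markers were abundant and within 2-fold, with log2 ratios from -0.23 (*Krt5*) to 0.33 (*Mylk*). All 12 luminal markers were lower in CL basal, 3 of them at least 2-fold and all but *Elf5* (69 and 84 counts, -0.28, -0.98 to 0.40) beyond counting error, with a median log2 ratio of -0.86 and a summed level of 3245 CPM against 5200 in Ctrl basal, and none was at 0. The 11 macrophage markers summed to 26.94 and 37.99 CPM. Of the 8 tested, 7 were lower and 1 higher, and in 2 the whole interval lay below 0. These 2 were *Cd14* (468 and 748 counts, -0.68, -0.92 to -0.44) and *Mrc1* (86 and 168 counts, -0.95, -1.54 to -0.42). The defining marker *Adgre1* had 10 and 7 counts, too few to be tested. The 6 fibroblast markers summed to 204 and 249, the 5 endothelial markers to 291 and 364, and the 6 lymphoid markers to 4.01 and 4.43, in the same order. The interval lay below 0 in 5 of the fibroblast markers and above 0 in 0, and *Lum* was at least 2-fold lower (34 and 128 counts, -1.86, -2.78 to -1.13). Among the endothelial markers it lay below 0 in 3 and above 0 in 1. The 5 keratinocyte markers summed to 17.7 and 2.69, mostly from *Krt1* (367 and 19 counts) and *Krt10* (262 and 38 counts). *Lor* had 33 and 18 counts, *Ivl* had 17 and 28, and *Flg* was at 0 in both. The part of these cells in the lower kinesin counts was not tested.

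No replicate gives the spread between mice, and with an assumed spread the 2-fold calls depended on its size. Where the coefficient of variation between libraries was set at 0.2, edgeR's exact test, corrected for all tested genes, left 2 of the 5 calls. These were *Kif15* and *Kif22*, and with 0.4 the test left 0. It took counts as deposited, not halved as for the intervals, so it understates counting error if both mates of a pair were counted.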

How the data were processed

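Sorted basal cells were sequenced by RNA-seq, 1 library per group. The labels name an RNeasy kit and a SMARTER mRNA library kit, whereas the study's methods name RNAiso Plus. The deposited values are raw read counts per gene over annotated exons, made by the authors in the column layout of featureCounts, with GRCm38 (mm10) in the processing notes. Which aligner, annotation release, strand setting and filters were used is not given in the sources used here. The libraries held 37846008 counts (Ctrl basal) and 38962512 counts (CL basal). A deposited log2 ratio of the authors was not used. The deposited gene length, in another column, was used for levels.

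Counts were scaled with TMM factors (edgeR 4.0.16, R 4.3.3; 0.9869 for CL basal, 1.0133 for Ctrl basal), taken from the genes tested, those with a total of 20 counts or more. Log2 fold changes used a prior count of 2, and a gene was called at a change of at least 2-fold, with no p-value. The 95% intervals are exact Clopper-Pearson intervals of the share of reads in CL basal, or exact Poisson intervals for levels, without the prior count (scipy 1.17.1). Values from 1 to 20 were even in 68.7% (CL basal) and 67.9% (Ctrl basal) of genes, and 13 of the 20 kinesin values were even. Mates of a pair may thus have been counted separately, and counts were divided by 2 for the intervals. PCR copies, if not removed, make intervals too narrow. The limit that a count of 0 allows is 3 read pairs, or 6 deposited counts. The script was tested on simulated data.

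The kinesins, the other lists and the tests were chosen with earlier results of these data known. Beside the 10 kinesins, the text names from each list the pair of genes with the most counts and those that differed most in each direction among genes with at least 100 counts, up to 4, as far as space allowed, and says where a gene was named otherwise. Alternatives were other scalings (total counts, DESeq2 1.42.0 size factors, upper quartile), prior counts, filters and fold thresholds, a thinned library, protein-coding genes alone, removal of the trend on mean expression, intervals on counts as deposited, and edgeR's exact test with an assumed spread.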

Additional observations from a re-analysis of the deposited data

How the results depend on the processing

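The median log2 fold change of the kinesins ran from -1.09 (genes with at least 100 counts, 7 kinesins) to -0.92 (trend on mean expression removed), and 0 kinesins were at least 2-fold higher under any alternative tried. The count of kinesins at least 2-fold lower was 5 or 6, or 4 of the 7 with at least 100 counts, except where the coefficient of variation was set at 0.2 (2) or 0.4 (0). At a threshold of 1.5-fold, 7 kinesins were lower, against 11.7% of all tested genes. *Kif14*, which was 2.005-fold lower without a prior count, passed 2-fold with the deeper library thinned (-1.02), and *Kif18a* turned to 0.01 (0.012) with the trend removed, a value well within its interval. All kinesins but *Kif14* kept their side of 2-fold under each scaling, prior count, filter that kept them, thinning and centring. With intervals on counts as deposited, 8 kinesins instead of 7 excluded no change. The counts over all tested genes moved more, from 831 lower and 360 higher. Without a filter they were 3208 and 1342 (12.9% and 5.38% of 24944 genes). With at least 100 counts they were 247 and 65 (1.83% and 0.481% of 13507 genes), and at 1.5-fold 2029 and 1098 (11.7% and 6.33%). With a coefficient of variation set at 0.1 they were 495 and 190, with 0.2 they were 108 and 42, and with 0.4 they were 0 and 2. No paired analysis was possible because neither group had more than 1 library, and for the same reason no library could be left out. Depth limits *Kif2c*, *Kif18a* and *Kif14*, each with under 100 counts over both libraries.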
